A study of Rattus norvegicus with 18 samples.

Results

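The comparison set whole brains of rats of the stroke-prone spontaneously hypertensive strain (SHRSP) against those of the spontaneously hypertensive rat (SHR) at 3 weeks of age. Members were chosen by the sample titles and the age label, which gave 6 arrays of 18 in the series, 3 per strain. Both are inbred strains that develop high blood pressure, and SHRSP was derived from SHR by breeding from animals that had strokes. Their brains were untreated, total RNA was amplified from an oligo-dT primer with the dye Cy3, and each RNA was hybridised alone to an Agilent rat array. The other arrays were from the normotensive Wistar-Kyoto rat (WKY) at 3 weeks and from all 3 strains at 6 weeks. The titles call the replicates biological. The sources used here give neither the sex of the animals nor whether an array held 1 brain or a pool. The p-values therefore measure a spread between samples, which the main fit takes from all 18 arrays and not from the compared 6 alone.

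Every value below is a level in log2, with the 75th percentile of its array set to 0, or a difference between group means, labelled SHRSP minus labelled SHR. Errors are standard errors (SE) of the limma fit across all 18 arrays (n = 3 per group), a difference of 1 is 2-fold, and called genes are those with limma p-values under 0.05 after Benjamini-Hochberg adjustment across 21190 genes. Median spot intensity lay between 380.3 and 418.6 on the 6 arrays, and 82.5% to 85.5% of spots were well above background. No spot was saturated, and 3 arrays per group limit the precision. In a whole brain, fewer cells of a type and less RNA per cell cannot be told apart.

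2 features of the arrays bear on every result. First, most genes with a large difference at 3 weeks showed the opposite difference between the same labels at 6 weeks, as described with the comparison of ages. The groups are therefore called the arrays labelled SHR and labelled SHRSP throughout. Second, labelled SHR replicate 1 stood apart. It lay on slide 1 with the WKY arrays, whereas labelled SHR replicates 2 and 3 shared slide 2 with labelled SHRSP replicates 1 and 2, and labelled SHRSP replicate 3 lay on slide 3, scanned on another day. The SD of the log2 difference to replicates 2 and 3 was 0.378 and 0.376 for labelled SHR replicate 1, against 0.234 between replicates 2 and 3 and 0.250 to 0.268 among the labelled SHRSP arrays. On the first principal component, which held 33.4% of the variance of all 18 arrays, it scored -13.7, the WKY arrays of 3 weeks -33.2 to -25.8 and the other 5 arrays 20.0 to 26.8. Each group not compared here lay on 1 slide, so its arrays add no spread between slides to the main fit. The SE and p-values of that fit may therefore be too small for groups that lie on several slides. The fit with slide as a block estimates the difference within slide 2, 2 arrays against 2, and its adjusted p is given as the slide-block adjusted p where it misses the threshold.

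Probes of some genes with large differences, and that of Nppa near Agtrap, are shown first, since each of these results rests on 1 oligonucleotide of 60 bases. Other genes differed by more than Nppa and are not shown here. The sequences are those of the scanner files, with positions in the rn4 build. The place of the probes within exons was not analysed here. The positions of the Ephx2 probe span more than its length, so its bases are not contiguous in the genome.
Vegfb, chr1:209657830-209657889, minus strand: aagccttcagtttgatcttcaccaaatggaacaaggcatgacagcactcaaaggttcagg
Defb17, chr9:17117191-17117250, minus strand: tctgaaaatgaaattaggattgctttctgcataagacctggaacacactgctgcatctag
Zfp597, chr10:11926184-11926243, plus strand: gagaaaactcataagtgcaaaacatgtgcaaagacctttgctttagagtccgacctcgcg
Hba-a3, chr10:15559461-15559520, minus strand: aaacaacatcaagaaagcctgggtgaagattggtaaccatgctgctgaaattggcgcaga
Agtrap, chr5:165154364-165154423, minus strand: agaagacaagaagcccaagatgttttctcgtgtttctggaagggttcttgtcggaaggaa
Ephx2, chr15:45535737-45538220, minus strand: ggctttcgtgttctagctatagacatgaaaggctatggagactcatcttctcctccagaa
Nppa, chr5:165074636-165074695, plus strand: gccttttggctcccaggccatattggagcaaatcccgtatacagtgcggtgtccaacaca

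Blood pressure and brain vessels are regulated by peptides such as angiotensin II and the natriuretic peptides, by lipid mediators made from arachidonic acid, and by growth factors of the endothelium. Angiotensin II acts through its type 1 receptor, which narrows vessels and retains salt, while atrial natriuretic peptide opposes it. Epoxides of arachidonic acid widen cerebral vessels until soluble epoxide hydrolase inactivates them. Loci for these traits have been sought in crosses of SHR and SHRSP.

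Between the labels, 913 of 21190 genes were called (4.31%), 485 raised in the arrays labelled SHRSP (2.29%) and 428 lowered (2.02%). An established gene symbol belonged to 709 of them. The median size of a called difference was 0.36, and 75 genes differed at least 2-fold, 40 raised and 35 lowered. The 2 groups of arrays did not overlap in 911 of the called genes, beside 4286 of all genes tested (20.2%). With slide as a block 571 genes were called (2.69%), 496 of them among the 913. Within slide 2 all 913 had the same direction, which was fixed in advance for the 911 whose groups did not overlap. In a fit of only the 6 arrays 288 genes were called, 277 of them among the 913. Of the 75 genes at least 2-fold apart, 66 were also called with the block. Over all 21190 genes 10480 differences were positive. The counts of gene lists below are to be read beside these shares. Members of a list were measured on the same 6 arrays and can move together, so they are not separate observations.

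Genes of the renin-angiotensin and natriuretic systems were lowered at a pair of neighbouring loci on chromosome 5. Agtrap, whose product binds the angiotensin II type 1 receptor and promotes its internalisation, had levels of -0.36, -0.34 and -0.32 on the arrays labelled SHR and -4.33, -4.46 and -4.42 on those labelled SHRSP. Its 3 WKY arrays had a mean of -0.51, so the arrays labelled SHRSP stood apart from both other groups. The difference was -4.06 ± 0.05 (SE, n = 3; adjusted p = 2.8e-15). Nppa, which encodes atrial natriuretic peptide, lay 80 kb away and had levels of -3.48, -3.23 and -3.15 against -4.53, -4.49 and -4.37 (difference -1.17 ± 0.08, adjusted p = 2.74e-07). Its groups did not overlap, and its WKY mean of -3.40 was near the arrays labelled SHR.

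Of 18 measured renin-angiotensin genes, 0 were raised and 2 lowered, Agtrap among them (median -0.10, beside -0.0015 over all genes). Of 27 measured natriuretic and vasoactive peptide genes and receptors, only Nppa was called (median -0.06).

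Among genes of arachidonic acid metabolism, 1 of 23 was raised and 3 were lowered (median 0.00). Ephx2, the soluble epoxide hydrolase, had levels of -3.47, -3.42 and -3.37 on the arrays labelled SHR and -6.91, -7.47 and -7.64 on those labelled SHRSP, where 2 of 3 arrays were well above background. The groups lay far apart, at a difference of -3.92 ± 0.19 (adjusted p = 5.69e-09), and the WKY mean was -3.69. Alox15, a lipoxygenase of arachidonic and linoleic acid, was at -2.33, -1.97 and -2.18 against -2.77, -3.18 and -3.29 (difference -0.92 ± 0.17, adjusted p = 0.0053). Cyp2j10, an epoxygenase relative, differed by -0.45 ± 0.11 (adjusted p = 0.027; slide-block adjusted p = 0.16). It was not called without any one of labelled SHR replicates 1 and 3 or the labelled SHRSP arrays, with values of -0.49 to -0.40, and after normexp Cyp2j10 was -0.26. Ptgs2, the inducible cyclooxygenase, was raised by 0.39 ± 0.08 (adjusted p = 0.01; slide-block adjusted p = 0.11). Without labelled SHRSP replicate 2 its adjusted p was 0.052, and after normexp, a background correction, Ptgs2 was 0.23 (adjusted p = 0.0508).

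Vegfb, a growth factor that binds the receptor Flt1, was among the genes furthest apart. Its levels were -9.48, -8.78 and -9.17 on the arrays labelled SHR, none well above background, and 0.46, 0.37 and 0.47 on those labelled SHRSP. The WKY mean was 0.40, so here the arrays labelled SHR stood apart. The group means were -9.14 and 0.43, and the difference came to at least 292-fold (adjusted p = 2.98e-15). For such a bound, each dim array is counted at the weakest signal that is well above background anywhere on it, or at its measured signal where that is higher. Of 15 vascular growth genes, 1 was raised and 2 lowered (median 0.01). Kdr, the main signalling receptor for Vegfa, was at 1.37, 1.25 and 1.25 against 0.94, 0.89 and 0.71 (difference -0.44 ± 0.09, adjusted p = 0.0065; slide-block adjusted p = 0.11). Flt4, the receptor of lymphatic vessels, differed by -0.30 ± 0.07 (adjusted p = 0.036; slide-block adjusted p = 0.084). Flt4 was not called without any one of the labelled SHRSP arrays, and it was -0.18 without labelled SHR replicate 1 and -0.17 within slide 2.

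Of the 27 measured candidate hypertension genes, 1 was raised and 5 were lowered (median -0.11), which counts Vegfb, Agtrap, Ephx2 and Nppa again. Stim1, a calcium sensor of the endoplasmic reticulum, was at 1.55, 1.30 and 1.27 against 1.02, 1.06 and 1.06 (difference -0.33 ± 0.06, adjusted p = 0.0067). Its highest value was that of labelled SHR replicate 1, near the WKY mean of 1.54. Cd36, a fatty acid transporter, differed by -0.47 ± 0.12 (adjusted p = 0.043; slide-block adjusted p = 0.11). Leaving out labelled SHR replicate 2 or 3 or any labelled SHRSP array ended the call of Cd36, with values of -0.55 to -0.43. The blood pressure genes Agt, Ace, Agtr1a, Th, Add1 and Nos3 were not called, with differences of 0.11, -0.12, -0.18, -0.14, -0.04 and -0.07, and were picked for mention after their values were seen.

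**Figure D1:**
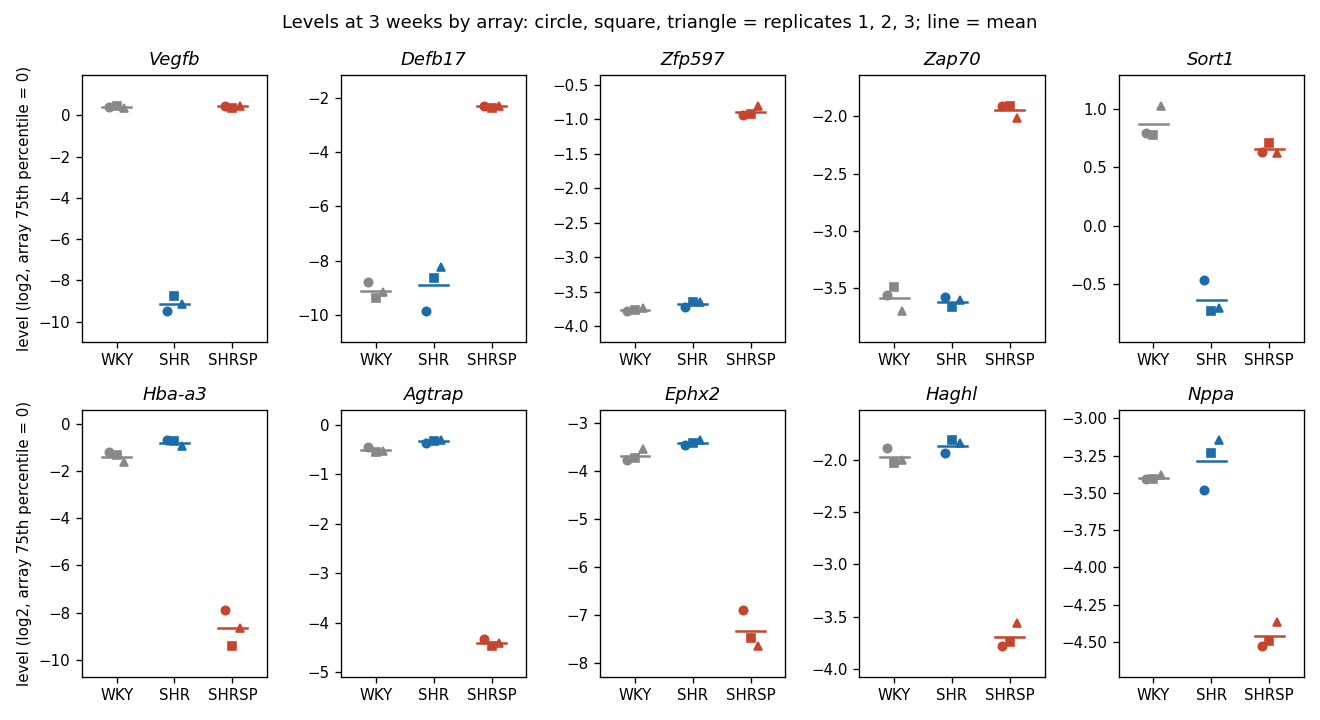
Level of 10 genes on each array of 3 weeks (y axis: log2, with the array's 75th percentile at 0; each panel has its own axis), for WKY in grey, arrays labelled SHR in blue and arrays labelled SHRSP in red. Circles, squares and triangles are replicates 1, 2 and 3 and lines are means; in every panel the SHR and SHRSP labels separate, and WKY lies near one or the other.

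Other genes with large raised values had varied roles. Defb17, a defensin gene, was at -9.86, -8.64 and -8.25 with no labelled SHR array above background, and at -2.27, -2.36 and -2.27 on those labelled SHRSP. With group means of -8.92 and -2.30, the arrays labelled SHRSP were at least 43.8-fold higher (adjusted p = 7.86e-07). Zfp597, a zinc finger gene, was at -3.71, -3.65 and -3.65 against -0.94, -0.92 and -0.80 (difference 2.78 ± 0.07, adjusted p = 5.45e-12). The groups lay far apart for Zfp597, as they did for Trappc6a, which encodes a subunit of a vesicle-tethering complex. Trappc6a was at 0.60, 0.63 and 0.62 against 1.93, 1.88 and 1.88 (difference 1.28 ± 0.04). Zfp296, Serhl2, a serine hydrolase relative, and Mettl2, a methyltransferase of transfer RNA, rose by 2.29 ± 0.08, 2.06 ± 0.07 and 1.90 ± 0.14. Rgs11, which ends signalling by G proteins and was above background on 2 of the 3 arrays labelled SHR, rose by 2.33 ± 0.15.

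Signalling and sorting genes were also among the raised. Zap70, a kinase of the T cell receptor, was at -3.58, -3.67 and -3.61 against -1.91, -1.91 and -2.01 (difference 1.67 ± 0.06, adjusted p = 4.4e-10). It was the only one called of 13 measured leukocyte genes, whose median difference was -0.07 and whose summed level, on a linear scale with the 75th percentile at 1, was 4.79 to 5.01 and 4.90 to 5.05. Sort1, a sorting receptor for neurotrophin precursors and lipoproteins, was at -0.46, -0.73 and -0.70 against 0.63, 0.71 and 0.62 (difference 1.29 ± 0.08), and its other probe gave 1.71. Tceal7 rose by 1.47 ± 0.06; its other probe was not above background on the arrays labelled SHR. Pxmp4, a peroxisomal membrane protein, Eef2kmt, a methyltransferase of elongation factor 2, and Chia, an acidic chitinase, rose by 1.28 ± 0.07, 1.28 ± 0.09 and 1.27 ± 0.16.

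A copy of alpha globin was lowered. Hba-a3 was at -0.71, -0.76 and -0.97 on the arrays labelled SHR and at -7.89, -9.40 and -8.64 on those labelled SHRSP, none well above background. Its group means were -0.82 and -8.65, and it was at least 121-fold lower in the latter (adjusted p = 4.38e-10). Hba-a1, another alpha globin gene, was not called, at 6.99, 7.16 and 7.06 against 7.08, 6.93 and 6.97 (difference -0.08 ± 0.09, adjusted p = 0.715). Hba-a3 was the only one called of 10 measured red blood cell genes (median -0.21, and -0.27 within slide 2), of which 1 had a positive difference. Their summed level was 270 to 307 on the arrays labelled SHR and 240 to 271 on those labelled SHRSP. Globin copies are near-identical, so how far 1 probe reads its own copy was not tested.

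Lowered genes of metabolism and of the matrix followed. Haghl, a relative of the glyoxalase that detoxifies methylglyoxal, was at -1.94, -1.81 and -1.84 against -3.78, -3.75 and -3.56 (difference -1.83 ± 0.07, adjusted p = 3.7e-10). Tnfaip6, a hyaluronan-binding protein of inflamed matrix, was at -2.56, -2.72 and -2.71 against -4.42, -4.44 and -4.54 (difference -1.80 ± 0.06). For Tnfaip6 the WKY mean of -4.10 was on the side of the arrays labelled SHRSP. Myoc, myocilin, differed by -1.56 ± 0.09, Lpar6, a receptor for lysophosphatidic acid, by -1.37 ± 0.06, Lgals7, a galectin, by -1.32 ± 0.10 and Serpina4, the kallikrein inhibitor kallistatin, by -1.23 ± 0.07. Amer2, a regulator of Wnt signalling, fell by 1.11 ± 0.05. Rpl10l1, a ribosomal protein relative, differed by -1.23 ± 0.25 (adjusted p = 0.01; slide-block adjusted p = 0.078), and by -1.09 with adjusted p = 0.055 without labelled SHRSP replicate 1. Its other probe differed by -1.21, and at 6 weeks the probes of Rpl10l1 differed by 0.83 and, for the other one, -0.79.

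Smarcc1, a core subunit of the BAF chromatin remodelling complex, was at 0.57, 0.07 and 0.00 against -0.87, -0.92 and -0.90 (difference -1.12 ± 0.11, adjusted p = 2.3e-05). Labelled SHR replicate 1 was the highest, and within slide 2 the difference was -0.94. Its other probe differed by 0.08 (adjusted p = 0.59), so the probes of Smarcc1 disagree, and their mean gave -0.52. Pcyox1l, a relative of prenylcysteine oxidase, was at -0.86, -1.25 and -1.21 against -2.07, -2.08 and -2.32 (difference -1.05 ± 0.11). Among the 153 called genes with more than 1 kept probe, all other probes had the same direction for 121 and were also called for 37.

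Related immune receptor genes of chromosome 1, none of them above background on the arrays labelled SHRSP, were lowered. Pira2, an activating receptor of myeloid cells that recognises major histocompatibility molecules, was at -5.94, -5.86 and -5.85 against -9.06, -8.35 and -8.51, none of the latter above background. It was at least 3.61-fold lower in the arrays labelled SHRSP (adjusted p = 0.000139), from group means of -5.88 and -8.64, and its other probe was not above background on those arrays either. Pirb, the inhibitory member, was at least 1.5-fold lower by the same bound (means -7.15 and -8.94; adjusted p = 0.0079). Lilrb3l, named after its values were seen, was at least 12.7-fold lower by that bound (means -4.07 and -9.21, none of the arrays labelled SHRSP above background), while its other probe, above background on 1 of those arrays, was not called. These genes are near-copies of each other, so their values are not independent.

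Dim genes gave the weakest of these calls. Lbp, which binds bacterial lipopolysaccharide, was at least 1.81-fold higher under the SHRSP label (means -7.92 and -6.76; slide-block adjusted p = 0.13), Akr1c12, an aldo-keto reductase, at least 1.64-fold lower (means -7.02 and -8.56; slide-block adjusted p = 0.13) and Zc3h12a, an RNase of inflammatory messages, at least 1.43-fold higher (means -7.83 and -7.21; slide-block adjusted p = 0.20). Leaving out 1 array ended the call in 4 of 6 fits for Lbp (all but those without labelled SHR replicate 3 or labelled SHRSP replicate 3). It did so in 1 fit for Akr1c12 (without labelled SHRSP replicate 3, -1.19) and in 5 for Zc3h12a (all but the one without labelled SHR replicate 2, values 0.56 to 0.71). After normexp background correction with an offset of 50, which shrinks differences of dim probes, none of these 3 was called.

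The same correction shrank some of the largest values without ending their calls. The differences became 5.39 for Vegfb, 3.15 for Defb17, -4.37 for Hba-a3, -1.85 for Ephx2, -0.54 for Pira2, -0.20 for Pirb, 1.01 for Zfp296, 0.96 for Rgs11, 0.92 for Tceal7, 0.58 for Chia, -0.83 for Myoc and -0.72 for Lgals7.

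The circadian clock is a loop in which Clock and Bmal1 activate the Per and Cry repressors, with Dbp, Nfil3 and the Bhlhe factors as output and accessory regulators, and it runs in most brain cells. Of 19 measured clock genes, 5 were raised and 2 lowered (median 0.15, and 0.11 within slide 2). Per2 was at -3.18, -3.18 and -2.99 against -2.40, -2.33 and -2.43 (difference 0.73 ± 0.09, adjusted p = 0.0001). The groups did not overlap, and the WKY mean was -3.33. Bmal1, the activator, was at -0.38, -0.44 and -0.38 against -0.76, -0.68 and -0.62 (difference -0.29 ± 0.04, adjusted p = 0.0011), and with the mean of its 2 probes it was not called. Nfil3, a repressor of D-box genes, was at -2.21, -2.22 and -2.28 against -2.66, -2.82 and -2.67 (difference -0.48 ± 0.07, adjusted p = 0.00089).

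The other called clock genes were repressors and Dbp. Bhlhe40, a repressor at E-boxes, was at -2.45, -2.44 and -2.34 against -2.10, -2.03 and -1.98 (difference 0.37 ± 0.06, adjusted p = 0.0012). Cry1 was at -0.91 on all 3 arrays labelled SHR and at -0.61, -0.68 and -0.58 on those labelled SHRSP (difference 0.29 ± 0.06, adjusted p = 0.0065; slide-block adjusted p = 0.073). Dbp, an activator at D-boxes, was at 3.55, 3.74 and 3.91 against 4.21, 4.23 and 3.96 (difference 0.40 ± 0.10, adjusted p = 0.036; slide-block adjusted p = 0.051). Leaving out labelled SHR replicate 1 or 2 or labelled SHRSP replicate 1 or 2 ended its call, with values of 0.31 to 0.48. Ciart, a repressor of the loop, differed by 0.34 ± 0.09 (adjusted p = 0.046; slide-block adjusted p = 0.17) and was not called when any one array was left out (0.30 to 0.37). The hour at which brains were taken is not given in the sources used here.

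Promoters of clock genes are shown because E-boxes and D-boxes are the elements through which the loop is known to act. They are RefSeq sequences of the GRCr8 build, 250 bases before to 50 after the start, with the matched letters in capitals.
Per2, chr9:99496944-99497243, minus strand, with TTATGTAA: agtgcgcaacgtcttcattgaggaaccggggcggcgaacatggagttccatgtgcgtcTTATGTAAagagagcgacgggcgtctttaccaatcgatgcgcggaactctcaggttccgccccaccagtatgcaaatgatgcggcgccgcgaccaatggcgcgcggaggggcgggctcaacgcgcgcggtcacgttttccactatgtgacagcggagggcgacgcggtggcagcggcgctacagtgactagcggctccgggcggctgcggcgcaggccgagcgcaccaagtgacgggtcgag
Ciart, chr2:186112197-186112496, minus strand, with CACGTG: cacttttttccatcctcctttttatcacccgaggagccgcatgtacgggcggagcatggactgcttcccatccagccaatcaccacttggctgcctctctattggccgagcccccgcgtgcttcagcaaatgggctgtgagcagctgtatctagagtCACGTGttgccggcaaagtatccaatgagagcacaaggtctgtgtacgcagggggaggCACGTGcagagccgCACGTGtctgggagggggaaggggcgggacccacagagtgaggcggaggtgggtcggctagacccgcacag

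Both strands were searched, and none of the motifs contains another. Of 17 clock genes with a promoter in the RefSeq table, 4 held CACGTG (23.5%), beside 6.65% of all 27457 promoters of that length. They were Ciart, Bhlhe40, Bhlhe41 and Tef, of which Ciart and Bhlhe40 were called. TTATGTAA was in 1 of 17, that of Per2, beside 0.881% of all. These matches describe letters in a reference genome and not binding in these brains.

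Glucocorticoids induce a set of genes in brain through their receptor, among them feedback regulators and metallothioneins. Of 15 measured members, 7 were raised and 2 lowered (46.7% and 13.3%, beside 2.29% and 2.02% of all genes). The median was -0.09, and 0.11 within slide 2. Of the 8 called members named here, 7 were not called in the fit of only the 6 arrays, all but Zbtb16. Zbtb16, a transcription factor strongly induced by steroids, was at -4.35, -4.24 and -4.07 against -2.94, -2.78 and -2.62 (difference 1.44 ± 0.15, adjusted p = 3.7e-05). Fkbp5, a chaperone partner that dampens the receptor, was at 0.08, 0.11 and 0.12 against 0.59, 0.76 and 1.18 (difference 0.74 ± 0.12, adjusted p = 0.0012). The labelled SHRSP arrays spread more than the labelled SHR arrays for Fkbp5, with replicate 3 the highest. Map3k6, a stress-activated kinase, had the same order, at -2.76, -2.76 and -2.57 against -2.27, -2.15 and -1.68 (difference 0.66 ± 0.14, adjusted p = 0.011; slide-block adjusted p = 0.10).

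The metallothioneins, which bind zinc and copper, rose together. Mt2A was at 2.52, 2.69 and 2.59 against 3.12, 3.03 and 3.30 (difference 0.55 ± 0.07, adjusted p = 0.00035) and Mt1 at 2.20, 2.33 and 2.27 against 2.63, 2.55 and 2.76 (difference 0.38 ± 0.06, adjusted p = 0.002). They are neighbours of similar sequence on chromosome 19. Klf9, a transcription factor, differed by 0.22 ± 0.06 (adjusted p = 0.036; slide-block adjusted p = 0.32). It was 0.12 within slide 2, and only the fits without labelled SHR replicate 2 or 3 kept its call. Members of the same list moved the other way: Nfkbia, the inhibitor of NF-kB, differed by -0.53 ± 0.12 (adjusted p = 0.016; slide-block adjusted p = 0.11) and Errfi1, an inhibitor of the EGF receptor, by -0.35 ± 0.08 (adjusted p = 0.016). Nfkbia lost its call without labelled SHR replicate 3 or labelled SHRSP replicate 2 or 3 (-0.64 to -0.44), and Errfi1 without labelled SHR replicate 2 or 3 or labelled SHRSP replicate 1 or 2 (-0.43 to -0.29).

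Cholesterol in brain is made locally, mostly for myelin. Of 25 measured genes of its synthesis and uptake, 0 were raised and 5 lowered (20.0%, beside 2.02% of all genes). Of the 25 differences 23 were negative (median -0.14, and -0.15 within slide 2). Hsd17b7, a sterol reductase, was at -0.79, -0.79 and -0.76 against -1.31, -1.39 and -1.38 (difference -0.58 ± 0.04, adjusted p = 1.1e-06). Tm7sf2, another sterol reductase, was at 0.35, 0.41 and 0.43 against 0.06, -0.08 and 0.04 (difference -0.39 ± 0.06, adjusted p = 0.0015). Idi1, which isomerises isopentenyl diphosphate, was at 1.92, 1.96 and 1.92 against 1.58, 1.43 and 1.64 (difference -0.38 ± 0.06, adjusted p = 0.002). The groups did not overlap for 16 of the 25 members, these genes among them, beside 20.2% of all genes. Among called genes this is the rule, as it held for 911 of 913.

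Sqle, squalene epoxidase, was at 2.65 on all 3 arrays labelled SHR and at 2.48, 2.44 and 2.54 on the others (difference -0.16 ± 0.04, adjusted p = 0.02). Its call was lost without labelled SHR replicate 2 or 3 or labelled SHRSP replicate 1 or 2 (-0.19 to -0.14), and after normexp. The sterol element core TCACNCCAC was in 0 of the 17 promoters matched, beside 1.13% of all.

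Genes of myelinating cells leaned the same way. Of 23 measured oligodendrocyte and myelin genes, 0 were raised and 4 lowered (17.4%), with a median of -0.18 and -0.17 within slide 2. Tspan2, a tetraspanin of myelin, was at 4.04, 3.98 and 3.98 against 3.48, 3.52 and 3.61 (difference -0.46 ± 0.05, adjusted p = 2.9e-05). Opalin, a paranodal loop protein, was at 2.29, 2.33 and 2.27 against 1.98, 1.89 and 1.82 (difference -0.40 ± 0.05, adjusted p = 8.8e-05), and its other probe gave -0.25. Ermn, a cytoskeletal protein of late myelination, differed by -0.25 ± 0.05 (adjusted p = 0.0077; slide-block adjusted p = 0.067) and was not called with the mean of its 2 probes. Ppp1r14a, a phosphatase inhibitor, fell by 0.23 ± 0.04 (adjusted p = 0.0022).

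The summed level of the myelin list was 322 to 328 on the arrays labelled SHR and 306 to 320 on those labelled SHRSP, and all 23 members were above background on all 6 arrays. Of 10 measured progenitor genes, 2 were lowered (median -0.09). Olig2, a lineage transcription factor, differed by -0.27 ± 0.07 (adjusted p = 0.034; slide-block adjusted p = 0.072) and Neu4, a sialidase, by -0.24 ± 0.06 (adjusted p = 0.049; slide-block adjusted p = 0.14). Olig2 kept its call only without labelled SHRSP replicate 3 (-0.31 to -0.22) and Neu4 in none of the 6 fits that left out 1 array (-0.26 to -0.21). The part that the number of myelinating cells plays in the cholesterol list was not tested.

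Interferon-induced genes had the most negative median of the pathway lists, -0.36 (-0.40 within slide 2), with 22 of 24 differences below 0. Only 3 were called, all lowered (12.5%, beside 2.02% of all genes). In the fit of only the 6 arrays these 3 were not called. Gbp5, an interferon-induced GTPase, was at -4.31, -4.17 and -4.13 against -4.54, -4.75 and -4.93 (difference -0.54 ± 0.09, adjusted p = 0.0031). After normexp it was -0.33, and the mean of its 2 probes was not called. Cxcl10, a chemokine, was at -5.63, -6.09 and -5.82 against -7.14, -6.93 and -8.04 (difference -1.52 ± 0.29, adjusted p = 0.0065; slide-block adjusted p = 0.093), above background on 2 of the 3 arrays labelled SHRSP. After normexp Cxcl10 was -0.42. Gbp2 was at -1.68, -1.51 and -1.28 against -1.80, -1.88 and -2.39 (difference -0.53 ± 0.14, adjusted p = 0.042). Its call was lost without labelled SHR replicate 2 or 3 or labelled SHRSP replicate 2 or 3 (-0.64 to -0.35, the last without labelled SHRSP replicate 3), after quantile normalization and with no filter on dim probes. Labelled SHRSP replicate 3 was the lowest array for all 3 genes. WKY means of these 3 genes were -4.21, -5.72 and -1.66, near the arrays labelled SHR. The summed level of the whole list was 62.8 to 68.0 in WKY, above both labels, at 50.4 to 59.4 for SHR and 46.6 to 48.3 for SHRSP.

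Promoters of interferon genes are shown for the element core TTTCNNTTT, which the interferon regulatory factors are known to bind. The capitals mark it on either strand.
Gbp2, chr2:234005477-234005776, plus strand: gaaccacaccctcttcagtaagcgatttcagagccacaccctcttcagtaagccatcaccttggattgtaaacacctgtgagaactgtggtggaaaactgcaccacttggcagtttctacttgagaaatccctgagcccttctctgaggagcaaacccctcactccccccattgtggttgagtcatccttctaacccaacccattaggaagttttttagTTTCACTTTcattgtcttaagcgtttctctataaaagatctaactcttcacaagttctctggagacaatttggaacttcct
Cxcl10, chr14:15988816-15989115, plus strand: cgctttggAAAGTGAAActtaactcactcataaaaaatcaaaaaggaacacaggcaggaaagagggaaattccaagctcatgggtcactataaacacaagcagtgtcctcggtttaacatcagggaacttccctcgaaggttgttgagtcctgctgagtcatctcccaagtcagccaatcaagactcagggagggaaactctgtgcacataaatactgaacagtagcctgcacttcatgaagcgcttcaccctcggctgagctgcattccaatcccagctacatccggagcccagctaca
The core was in 15 of the 21 list members with a promoter in the table (71.4%), Gbp5 among them, beside 11.5% of all promoters. As the list was drawn up from genes known to respond to interferon, this describes the list and not these brains.

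**Figure D2:**
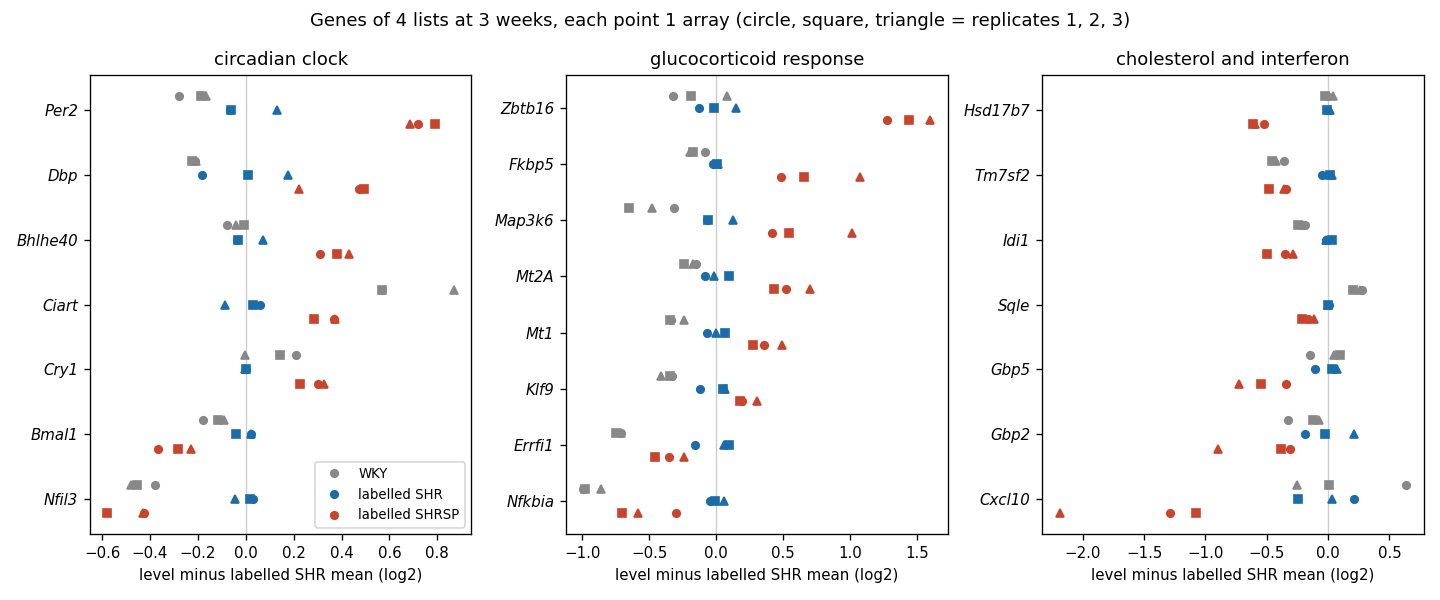
Level of genes called in the clock, glucocorticoid, cholesterol and interferon lists on each array of 3 weeks, as the difference from the mean of the arrays labelled SHR (x axis, log2; y axis, genes), with WKY in grey, labelled SHR in blue and labelled SHRSP in red. Circles, squares and triangles are replicates 1, 2 and 3; Per2 and Zbtb16 lie to the right in the labelled SHRSP arrays, the cholesterol genes to the left, and labelled SHRSP replicate 3 is lowest for Gbp5, Gbp2 and Cxcl10.

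Endothelial genes moved in both directions. Of 15 measured, 3 were raised and 1 lowered, Kdr (median -0.04). Mfsd2a, the lipid transporter that keeps transcytosis low at the blood-brain barrier, was at -0.71, -0.76 and -0.71 against -0.26, -0.24 and -0.23 (difference 0.48 ± 0.05, adjusted p = 6e-05). Pecam1, an adhesion molecule of endothelial junctions, was at -1.40, -1.32 and -1.30 on the arrays labelled SHR and had a mean of -0.87 on the others, with no overlap (difference 0.46 ± 0.07, adjusted p = 0.0007). Slc2a1, the glucose transporter of the barrier, was at 2.38, 2.54 and 2.58 against 2.75, 2.76 and 2.83 (difference 0.28 ± 0.06, adjusted p = 0.015; slide-block adjusted p = 0.17), and not called without labelled SHR replicate 1 or labelled SHRSP replicate 3 (0.22 to 0.32 over the 6 fits). The ranges of the summed level of the endothelial list overlapped between the labels.

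Mural and meningeal genes gave negative medians and 1 call. None of 13 pericyte and vascular smooth muscle genes was called, 12 of 13 differences were negative (median -0.22, and -0.14 within slide 2), and the summed level was 4.79 to 5.16 against 4.24 to 4.47. Before adjustment, 3 of them had p under 0.05. Among the brightest of them, Vtn, vitronectin, differed by -0.26 ± 0.07 (adjusted p = 0.05) and Higd1b by -0.35 ± 0.10 (adjusted p = 0.061). Of 17 meningeal and fibroblast genes, 1 was lowered (median -0.14, and -0.08 within slide 2), with a summed level of 98.4 to 106.0 against 86.5 to 92.6. That gene, Aldh1a2, which makes retinoic acid, differed by -0.43 ± 0.11 (adjusted p = 0.048; slide-block adjusted p = 0.24). It kept its call only without labelled SHR replicate 3, was -0.26 without labelled SHR replicate 1, and was not called after quantile normalization or normexp.

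Glial and neuronal genes, which check the tissue, were high on all 6 arrays. All 13 excitatory neuron, 13 inhibitory neuron, 14 astrocyte and 15 microglial genes measured were above background on every array. None of the neuronal genes was called (medians 0.05 and -0.02). Nrgn, neurogranin, was at 3.24, 3.31 and 3.27 against 3.40, 3.49 and 3.41 (adjusted p = 0.057), and Cck and Pvalb differed by -0.04 and 0.04. Synaptic vesicle genes had 0 of 19 called and a median of 0.08. Before adjustment, limma gave p under 0.05 for 3 excitatory, 1 inhibitory and 3 synaptic vesicle genes.

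Among microglial genes all 15 differences were at or above 0 (median 0.11, and 0.07 within slide 2), but 1 was called. P2ry12, the purine receptor of resting microglia, was at 0.00, 0.31 and 0.25 against 0.70, 0.56 and 0.65 (difference 0.45 ± 0.09, adjusted p = 0.0064; slide-block adjusted p = 0.075). Its lowest value was that of labelled SHR replicate 1. The summed microglial level was 30.7 to 33.4 against 34.6 to 36.6. Of 14 astrocyte genes, 2 were raised: Gjb6, a gap junction protein, by 0.23 ± 0.06 (adjusted p = 0.035; slide-block adjusted p = 0.31) and S100b, a calcium-binding protein, by 0.20 ± 0.05 (adjusted p = 0.046; slide-block adjusted p = 0.31). Gjb6 kept its call only without labelled SHR replicate 2 and was 0.15 within slide 2. S100b kept it only without labelled SHR replicate 3 or labelled SHRSP replicate 2, was 0.14 within slide 2, and its other probe differed by -0.08.

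Pituitary and pineal genes varied widely among the arrays of 1 label, and most choroid plexus genes had positive differences. Pomc, the precursor of pituitary and hypothalamic hormones, was at 2.45 on labelled SHR replicate 2 and between -1.25 and -0.87 on the other 5 arrays. None of 7 pituitary genes was called (median -0.47, and -0.23 within slide 2), and their summed level was 0.757 to 5.80 against 0.594 to 0.671. The choroid plexus list had 13 of 14 positive differences and none called (median 0.21, and 0.29 within slide 2); Ttr, transthyretin, differed by 0.23. Its summed level was 131 to 132 against 141 to 163. Pineal and photoreceptor genes had 0 of 9 called (median 0.33, and 0.43 within slide 2), and their summed level was 0.802 to 0.842 against 0.766 to 2.28. Before adjustment, limma gave p under 0.05 for 2 choroid plexus, 0 pituitary and 0 pineal genes. The part of dissection in any of the differences above was not tested.

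Activity-regulated and metabolic genes showed few calls. Of 23 immediate early genes, 2 were lowered (median -0.04). Nr4a1, a nuclear receptor induced by activity, was at 1.18, 0.82 and 0.86 against 0.54, 0.38 and 0.44 (difference -0.50 ± 0.09, adjusted p = 0.0047). Dusp1, a phosphatase that ends MAP kinase signalling, differed by -0.62 ± 0.15 (adjusted p = 0.035; slide-block adjusted p = 0.14), and its call was lost whichever array was left out (-0.67 to -0.52; -0.40 after normexp), after quantile normalization and with no filter on dim probes. Grp, gastrin-releasing peptide, was the only one called of 23 neuropeptide genes, at 0.00, 0.06 and 0.08 against -0.32, -0.29 and -0.27 (difference -0.34 ± 0.05, adjusted p = 0.00032).

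Oxidative phosphorylation had 1 of 30 genes raised and 1 lowered (median 0.03), and the ribosomal proteins 0 of 48 raised and 1 lowered (median 0.03). Atp5pb, a subunit of the ATP synthase stalk, differed by -0.16 ± 0.04 (adjusted p = 0.024), and Atp5pb kept its call only without labelled SHR replicate 1 (-0.19 to -0.14 over the 6 fits). Rps9 differed by -0.22 ± 0.04 (adjusted p = 0.01), with adjusted p = 0.053 without labelled SHRSP replicate 2, and lies 127 kb from Pira2. Eno1, an enolase of glycolysis and among the brightest called genes, was at 6.13, 6.08 and 6.02 against 5.79, 5.83 and 5.82 (difference -0.26 ± 0.04, adjusted p = 0.0017). Antioxidant genes had 1 of 29 called, Haghl (median 0.00). None of 22 unfolded protein genes and none of 16 antigen presentation genes was called by limma (medians 0.08 and -0.03). Before adjustment, 7 and 4 of them had p under 0.05.

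**Figure D3:**
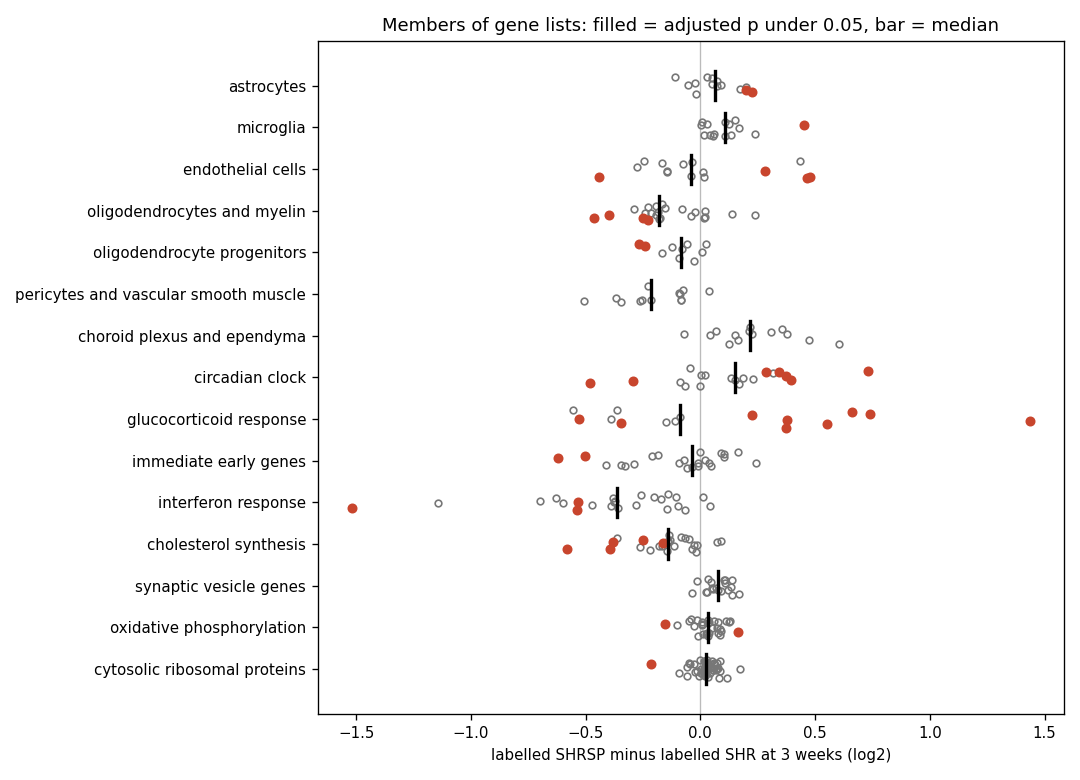
Difference of each measured member of 15 gene lists at 3 weeks, labelled SHRSP minus labelled SHR (x axis, log2; y axis, lists, with points spread vertically for sight). Red points are called genes, open points are not, and black bars are medians, which lie lowest for interferon (-0.36) and highest for choroid plexus (0.21).

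Set against WKY, 616 of the 913 called genes had their WKY mean of 3 weeks nearer to that of the arrays labelled SHR and 297 nearer to that of the arrays labelled SHRSP. This included 336 of 485 raised and 280 of 428 lowered genes. In 206 raised and 210 lowered genes WKY lay between the labels. Of the 75 genes at least 2-fold apart, WKY was nearer to labelled SHR in 52, Agtrap, Ephx2, Zfp597, Zap70 and Haghl among them, and nearer to labelled SHRSP in 23, among them Vegfb, Sort1, Serhl2, Tnfaip6 and Myoc. Labelled SHR replicate 1 shared its slide with the WKY arrays, and the part of that slide in these counts was not tested.

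The same labels were compared at 6 weeks on 6 other arrays, where 9059 genes were called (42.8%). There each group lay on a slide of its own, so slide and group cannot be told apart. Of the 913 genes called at 3 weeks, 102 were called in the same direction at 6 weeks, 492 in the opposite direction and 319 were not called. Of the 75 at least 2-fold apart, 61 were opposite, 5 the same and 9 not called. Across these 75 genes the differences at the 2 ages correlated with r = -0.90, beside 0.04 over all 21190 genes. Genes are not independent replicates, and the 75 were chosen by their size at 3 weeks.

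The largest differences had opposite signs at the 2 ages. Vegfb was 9.58 at 3 weeks and -9.28 at 6 weeks, Agtrap -4.06 and 4.55, Hba-a3 -7.83 and 6.42, Ephx2 -3.92 and 3.65, Defb17 6.62 and -6.28, and Zfp597 2.78 and -2.81. At 6 weeks Agtrap was at -4.86, -4.79 and -4.73 on the arrays labelled SHR and at -0.26, -0.32 and -0.15 on those labelled SHRSP, so the levels seen at 3 weeks were exchanged. Vegfb, Defb17 and Hba-a3 had at each age a group with at most 1 array above background, so their values here are measured differences that rest on dim signals and give no exact size. Nppa, Zap70, Sort1, Haghl and Trappc6a turned in the same way, at 1.46, -1.59, -1.45, 2.03 and -1.14. The difference between ages was itself called for 3837 genes (18.1%), for 704 of the 913 and for 68 of the 75. It contains the 3 week difference by which the 913 and the 75 were chosen. Their high shares are therefore no separate result. Whether the samples, the labels or the animals account for the exchange was not tested, and neither age is taken here as the one labelled rightly.

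Other genes kept their direction. Apold1, an early response gene of endothelium, was at -2.79, -3.10 and -2.83 against -3.65, -4.25 and -3.94 (difference -1.04 ± 0.13, adjusted p = 0.00014) and differed by -1.18 at 6 weeks. Mmp14, a membrane metalloproteinase, was at 0.36, 0.12 and 0.00 against -0.33, -0.39 and -0.58 (difference -0.59 ± 0.09, adjusted p = 0.00055), and by -0.23 at 6 weeks. Mfsd2a differed by 0.27 at 6 weeks, Nfil3 by -0.71, Bmal1 by -0.18, Dbp by 0.48 and Nr4a1 by -1.51, each in the direction of 3 weeks and each called. Fst, the activin inhibitor follistatin, differed by 0.40 ± 0.07 and 0.23, and Cyp2t1, a cytochrome P450, by 0.37 ± 0.05 and 0.32. Itga9, an integrin, and Foxq1, a forkhead factor, differed by 0.46 ± 0.09 and 0.61 ± 0.12 at 3 weeks (slide-block adjusted p = 0.086 and slide-block adjusted p = 0.057) and by 0.54 and 0.65 at 6 weeks.

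Further genes called at 3 weeks were not called at 6 weeks. Zbtb16 differed by -0.36 at 6 weeks (adjusted p = 0.072), Smarcc1 by 0.14 (adjusted p = 0.35), Pcyox1l by -0.04 (adjusted p = 0.79), Cxcl10 by 0.35 (adjusted p = 0.36), Per2 by -0.20 (adjusted p = 0.074) and Fkbp5 by -0.21 (adjusted p = 0.16). The limma difference between ages, which contains the 3 week difference they were chosen by, was called for each of them. Its adjusted p was 6.3e-05, 0.00011, 0.00049, 0.007, 0.00013 and 0.0013. The probes of Pcyox1l disagree: the other one differed by -1.0 at 3 weeks and by 0.81 at 6 weeks. The list medians at 6 weeks were 0.24 for myelin, 0.12 for cholesterol, 0.02 for interferon, -0.12 for the clock and -0.45 for the glucocorticoid genes.

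**Figure D4:**
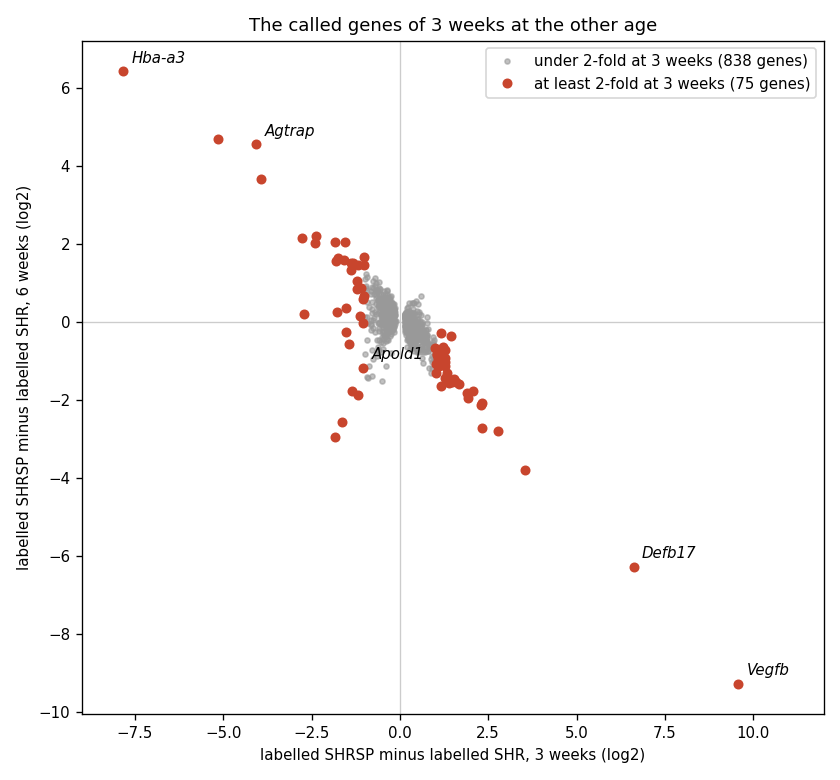
Difference between the labels at 6 weeks (y axis, log2) against that at 3 weeks (x axis, log2) for the 913 genes called at 3 weeks, with 75 genes at least 2-fold apart in red and the others in grey. Most red points run from the upper left (Hba-a3, Agtrap) to the lower right (Defb17, Vegfb), and a few, such as Apold1, lie at the lower left.

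Called genes were not spread evenly along the genome. By chromosome the share called ran from 1.68% of 595 genes on chromosome 12 and 1.81% of 553 on chromosome 20 to 8.70% of 517 on chromosome 18 and 8.80% of 557 on chromosome 19, leaving out the 12 mitochondrial genes. With slide as a block these chromosomes stood at 1.01%, 1.27%, 6.00% and 5.39%, and the ends changed: chromosome 7 was lowest at 0.981%, chromosome 16 lay below 20 at 1.22%, and chromosome 15 lay above 19 at 5.46%. Of 519 windows of 5 Mb with at least 8 tested genes, 211 held no called gene and 30 had over 15% called, beside a median of 2.22%. The highest share was 4 of 14 genes at 45 to 50 Mb of chromosome X, then 5 of 18 at 50 to 55 Mb of chromosome 18 and 3 of 11 at 140 to 145 Mb of chromosome 6, in rn4. Shares over so few genes are imprecise. Windows with more tested genes held more calls at lower shares. Among them were 9 of 41 at 0 to 5 Mb of chromosome 15 and 18 of 83 at 50 to 55 Mb of chromosome 19. Others were 14 of 74 at 165 to 170 Mb of chromosome 5 and 20 of 127 at 80 to 85 Mb of chromosome 1.

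Called genes of the windows with the highest shares, on chromosomes X, 18 and 6, had varied roles and moved in both directions. On chromosome X, Gpm6b, a proteolipid relative of neurons and glia, was at 2.48, 2.39 and 2.41 against 3.04, 2.88 and 2.81 (difference 0.48 ± 0.06, adjusted p = 0.00027), while Prps2, a synthetase of nucleotide precursors, fell by 0.30 ± 0.06. Tceanc and Hccs, a haem lyase of cytochrome c, differed by -0.52 ± 0.11 (slide-block adjusted p = 0.089) and -0.16 ± 0.04 (slide-block adjusted p = 0.21). Tceanc lost its call without labelled SHR replicate 2 (-0.44) or labelled SHRSP replicate 2 (-0.49), and after normexp it was -0.05 (adjusted p = 0.703). Hccs kept its call only without labelled SHRSP replicate 2 (-0.19 to -0.14 over the 6 fits), and its other probe differed by 0.03. On chromosome 18, Ctxn3, a cortexin, was at 0.56, 0.72 and 0.59 against -0.12, -0.28 and -0.07 (difference -0.78 ± 0.09, adjusted p = 7.7e-05). C18h5orf63, Prrc1 and Aldh7a1, a lysine-degrading aldehyde dehydrogenase, rose by 0.51 ± 0.04, 0.42 ± 0.04 and 0.27 ± 0.05, and Fbn2, a fibrillin of the matrix, differed by -0.40 ± 0.08 (slide-block adjusted p = 0.088). Fbn2 lost its call without labelled SHR replicate 2 (-0.35) or labelled SHRSP replicate 3 (-0.30). On chromosome 6, Vipr2, the receptor that synchronises clock neurons, was at -2.23, -2.01 and -2.07 against -1.81, -1.81 and -1.68 (difference 0.34 ± 0.06, adjusted p = 0.0032). Ncapg2 of the same window differed by -0.17 ± 0.04 (slide-block adjusted p = 0.18). Its call was lost whichever array was left out (-0.19 to -0.16), and after normexp Ncapg2 was -0.08.

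Around the largest differences other called genes lay close by, an arrangement that was looked for after the data were seen. Within 1 Mb of the genes at least 2-fold apart, 120 of 1325 other genes were called (9.06%), beside 658 of 18268 elsewhere (3.60%). Near Agtrap, 4 of 29 genes were called, 2 raised and 2 lowered. Plod1, a collagen lysyl hydroxylase, was at 0.10, 0.04 and 0.10 against 0.57, 0.58 and 0.66 (difference 0.53), and Fbxo44, a ubiquitin ligase subunit, differed by 0.58, both opposite in sign to Agtrap and Nppa. Near Hba-a3, 6 of 56 were called, among them Rgs11 at 82 kb with 2.33, Rhbdf1 at 107 kb with -0.75 and Haghl at 508 kb with -1.83. Near Vegfb 5 of 58 genes were called, 2 raised and 3 lowered, Tm7sf2 among the latter at 957 kb. Near Ephx2 none of 20 was called by limma, and 2 had an unadjusted p under 0.05.

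**Figure D5:**
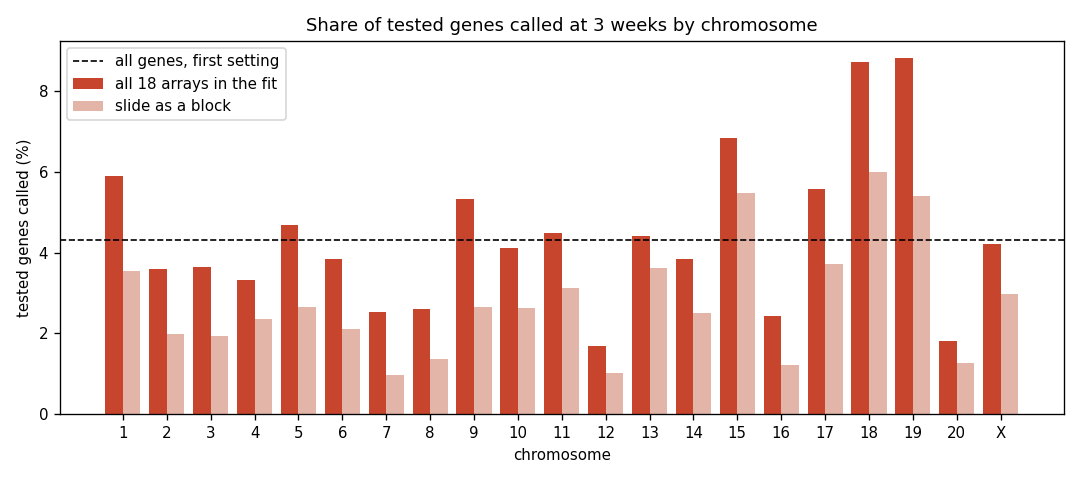
Share of tested genes called between the labels at 3 weeks (y axis, %) on each chromosome (x axis), in the fit of all 18 arrays (dark bars) and with slide as a block (light bars). The dashed line is the share over all genes, 4.31%; chromosomes 18 and 19 lie above it in both fits and chromosomes 12 and 20 below.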

How the data were processed

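Each spot of a deposited scanner file has an intensity. Per the file headers, Agilent Feature Extraction 10.5.1.1 subtracted a fitted background surface, removed spatial trends and replaced low values by surrogates, and nothing scaled arrays to each other. The deposited series table holds the same intensity values. Log2 of the intensity minus the array's 75th percentile was used here, without control spots and spots flagged as outliers (0.455% to 0.924% on these arrays). Probes well above background on all 3 arrays of at least 1 group were kept (24287 of 30367), and the brightest stood for its gene, which gave 21190 genes. Symbols came from RefSeq by accession (17492 probes), current symbol (2598), synonym (675) or shared name (48). limma 3.58.1 in R 4.3.3 fitted 6 group means (12 residual and 1.951 prior degrees of freedom), with two-sided tests, and was tested on simulated data first. Members, gene lists and tests were chosen with earlier results of these data known. Genes were named by a rule on size, background, lists, windows and both ages, for established symbols only. Alternatives were quantile normalization, normexp, other filters, slide and replicate blocks, probe means, fits of 6 or 4 arrays, and each array left out. Some called genes of the lists are not reported here.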

Additional observations from a re-analysis of the deposited data

Results flagged for a closer look

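For the genes below, the difference between the labels (SHRSP minus SHR) was not the same at both ages by the interaction test of limma, with Benjamini-Hochberg adjustment over all genes. Each value is the difference at 6 weeks minus that at 3 weeks, in log2 (n = 3 per group and age). It contains the 3 week difference, by which most of these genes were chosen. At 6 weeks slide and group cannot be told apart. A first set had a group with no array above background at one age or both, so these are measured values with no exact size and no order: Defb17 -12.9, Hba-a3 14.25, Lbp -2.22, Lilrb3l 9.81, Pira2 4.91, Pirb 2.05, Tceanc 0.48 and Vegfb -18.86. In the same state was Zc3h12a -0.67. Of the other genes, values above 0 began with Agtrap 8.62, Ephx2 7.57, Haghl 3.86, Myoc 3.59, Tnfaip6 3.36, Lgals7 2.84, Lpar6 2.69 and Nppa 2.64. Next in size came Serpina4 2.26, Rpl10l1 2.06, Amer2 1.98, Cxcl10 1.87, Rhbdf1 1.8, Alox15 1.73, Ctxn3 1.67 and Smarcc1 1.26. They were followed by Pcyox1l 1.01, Hsd17b7 0.97, Tm7sf2 0.96, Grp 0.9, Tspan2 0.84, Eno1 0.71, Gbp5 0.65 and Ppp1r14a 0.64. Smaller values were those of Rps9 0.58, Cd36 0.55, Stim1 0.53, Prps2 0.53, Neu4 0.53, Kdr 0.51, Atp5pb 0.43 and Opalin 0.35. Below these stood Ermn 0.34 and Sqle 0.17. The other probe of Rpl10l1 differed by -1.21 at 3 weeks and by -0.79 at 6 weeks, with no change of sign. Values below 0 began with Zfp597 -5.59, Rgs11 -4.42, Zfp296 -4.42, Serhl2 -3.85, Mettl2 -3.73, Zap70 -3.27, Tceal7 -3.02 and Sort1 -2.74. After them came Trappc6a -2.41, Pxmp4 -2.32, Eef2kmt -2.22, Chia -1.98, Zbtb16 -1.8, Gpm6b -1.26, C18h5orf63 -1.05 and Ptgs2 -1.02. Lesser values were Nr4a1 -1.01, Mt2A -1.0, Fkbp5 -0.95, Plod1 -0.94, Per2 -0.94, Fbxo44 -0.88, Map3k6 -0.88 and Pecam1 -0.81. Nearer to 0 lay Prrc1 -0.8, P2ry12 -0.7, Bhlhe40 -0.66, Vipr2 -0.62, Klf9 -0.5, Mt1 -0.45, Cry1 -0.42 and Ciart -0.41. Closer still were Aldh7a1 -0.31, Gjb6 -0.31 and S100b -0.27.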

How the results depend on the processing

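The 913 genes called at 3 weeks became 571 with slide as a fixed block, where the difference rests on 2 arrays against 2. They became 288 in a fit of only the 6 arrays and 125 within the shared slide. Those fits take their spread from the compared groups alone, with 4 and 2 residual degrees of freedom against 12. The part of fewer samples or of a wider spread of these arrays in the lower counts was not tested. Leaving out 1 array gave 648 to 809. The other alternatives gave 763 to 906. The share raised was 53.1%; it was 58.5% after quantile normalization, 50.3% with the fixed slide block and 48.5% without labelled SHR replicate 1. With slide as a random block the counts at 6 weeks and for the difference between ages became 4748 and 1950, from 9059 and 3837; with a fixed slide block neither could be fitted, because slides and groups coincide at 6 weeks. The replicate numbers did not pair the samples (deviations of same-numbered arrays correlated at -0.03, 0.001 and -0.10), and the replicate block gave 785, 8713 and 3523 calls. Of 111 called genes taken by the naming rule, 71 were called whichever array was left out. Of the same 111, 43 lost their call with the fixed slide block. None changed direction in that fit, which was fixed in advance for genes whose groups did not overlap. In the fit of only the 6 arrays 62 of the 111 lost their call, and within the shared slide 82 did. Spots near background limit the values of dim genes, for which normexp shrank differences.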
